A study of Mus musculus with 6 samples.

Results

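The core spliceosome was followed in hnRNP L deficient hematopoietic progenitors through 46 genes for its protein components. They were chosen by name, as proteins of the small nuclear ribonucleoproteins (snRNPs), the SF3A and SF3B complexes, the U2AF factors, the PRPF proteins and their partner helicases, and the LSM ring, and each was matched to its mouse Ensembl identifier. All 46 were found among the 38293 genes counted, and all 46 passed the expression filter that left 14396 genes for testing. RNA came from Lin- cKit+ cells sorted from the fetal liver (FL), a fraction in which stem and progenitor cells are found, of C57BL/6 embryos at embryonic day 14.5, 1 embryo per library. The 3 wt libraries carried the genotype hnRNPL wild-type in the labels, and in a display of its reads the study writes them as L fl/fl, that is with floxed alleles and no Cre. The 3 hnRNP L deficient libraries came from VavCre+ hnRNP L fl/fl embryos, in which Cre recombinase under the Vav promoter deletes the floxed alleles in hematopoietic cells. The lineage antibodies used on FL cells left out the one to CD11b, so that myeloid cells carrying this marker were not removed by it. In which cells of these libraries the alleles were deleted was not measured, and transcripts that lack the floxed part can still be counted. The study also names the possibility that incompletely deleted cells with residual protein remained and made splicing changes hard to detect. This was not tested here.

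The spliceosome removes introns from pre-mRNA and is built anew on each intron. The U1 snRNP pairs with the 5′ splice site, SF1 and U2AF mark the branch site and the 3′ splice site, and the U2 snRNP with SF3A and SF3B then takes over the branch site. The U4/U6.U5 tri-snRNP joins, helicases release U1 and U4, the Prp19 complex helps to hold the catalytic RNA in place, and further helicases drive the chemical steps, the release of the mRNA and the recycling of the parts. This machinery is needed in every cell. hnRNP L itself is no core component but an RNA-binding protein that influences which exons the machinery uses.

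The promoters of the 3 SF3A genes are shown as an example of a complex whose subunits all stood higher in every hnRNP L deficient library than in any wt library. This was also so for the 3 U1, 6 U5 and 3 Prp19 complex genes, and for 22.7% of all genes tested. The promoter of *Prpf31* is shown because it had the smallest p-value of the 46. The examples were chosen after their values and motifs were seen. Each window covers 250 bases before and 50 after the transcription start that RefSeq gives on GRCm38.p6, and lies at chr11:4160104-4160403 for *Sf3a1*, chr10:80798485-80798784 for *Sf3a2*, chr4:124714611-124714910 for *Sf3a3* and chr7:3629735-3630034 for *Prpf31*, all on the plus strand and all written 5′ to 3′. Capitals mark the letters CCGGAAG of ETS factors and AAGATGGCG of YY1, on either strand.
Sf3a1: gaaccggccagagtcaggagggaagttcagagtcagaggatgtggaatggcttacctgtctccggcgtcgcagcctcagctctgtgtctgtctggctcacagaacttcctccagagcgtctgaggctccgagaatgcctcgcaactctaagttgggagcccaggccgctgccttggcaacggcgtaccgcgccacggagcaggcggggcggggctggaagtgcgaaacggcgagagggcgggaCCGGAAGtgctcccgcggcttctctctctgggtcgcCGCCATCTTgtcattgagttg
Sf3a2: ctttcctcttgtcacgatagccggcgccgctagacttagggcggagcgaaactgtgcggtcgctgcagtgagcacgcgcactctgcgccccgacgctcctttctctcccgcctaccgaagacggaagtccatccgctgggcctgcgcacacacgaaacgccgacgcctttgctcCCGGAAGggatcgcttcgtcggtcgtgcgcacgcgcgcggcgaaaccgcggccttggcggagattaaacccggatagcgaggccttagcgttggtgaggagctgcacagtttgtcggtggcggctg
Sf3a3: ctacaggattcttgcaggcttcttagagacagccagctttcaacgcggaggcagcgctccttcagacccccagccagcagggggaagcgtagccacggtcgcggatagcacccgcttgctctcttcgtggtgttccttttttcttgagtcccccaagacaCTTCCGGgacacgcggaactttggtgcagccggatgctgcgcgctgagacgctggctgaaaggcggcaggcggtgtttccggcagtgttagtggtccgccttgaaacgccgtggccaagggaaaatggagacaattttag
Prpf31: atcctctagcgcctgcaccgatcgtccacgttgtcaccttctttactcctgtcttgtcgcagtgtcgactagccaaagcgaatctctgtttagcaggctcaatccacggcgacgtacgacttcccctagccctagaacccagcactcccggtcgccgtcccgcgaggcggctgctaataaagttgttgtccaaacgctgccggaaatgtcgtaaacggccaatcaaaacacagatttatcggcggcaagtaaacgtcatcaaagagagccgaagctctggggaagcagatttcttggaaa
Windows were found for 36 of the 46 members and were searched for 4 motifs on both strands. CCGGAAG was present in 14 of these 36 (38.9%), against 18.5% of the 10318 windows of genes tested here and 9.12% of all 27025 windows. It was found in 5 of the 10 windows of members called changed below and in 9 of the 26 windows of the other members. AAGATGGCG was present in 2 member windows, in 3.28% of those of genes tested and in 1.49% of all. GCATGCGC, the letters of NRF1, was present in 4, in 5.5% and in 2.8%, and the E-box CACGTG in 2, in 10.2% and in 7.24%. No 2 different motifs of the 4 overlapped in a member window, while matches of the same motif on both strands did, in *Snrpe* (ETS) and *Snrnp70* (NRF1). The window of *Prpf31* held none of the 4. These shares are descriptions of the windows, and no factor's binding was measured.

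*Hnrnpl* stood at 552.1, 531.3 and 527.6 CPM in wt replicates 1 to 3 and, among the hnRNP L deficient cells, at 242.1, 288.3 and 269.5 CPM, for a log2 change of −1.01 ± 0.09 (SE, adjusted p = 0.0072, quasi-likelihood test of edgeR). CPM are reads on a gene after scaling each library to the same depth, with TMM factors for composition, and values are always given in the order of replicates 1 to 3. Between 55952160 and 76157226 reads were counted on genes per library, so that 3 reads correspond to at most 0.0536 CPM, and the lowest value of any member in any library was 26.0 CPM, for *Lsm5*. The label gives whole embryo as tissue, but of the neuron and muscle markers all except *Tubb3* and *Tnnt1* had at most 5 reads in any library. Of 6 progenitor markers 4 fell, and their summed level ran from 1113 to 1598 CPM in wt and from 882.2 to 993.6 CPM in hnRNP L deficient libraries. The 7 granulocyte and monocyte markers summed to 8133 CPM in wt replicate 2, to 582.4 and 1495 CPM in the other wt libraries and to between 240.9 and 814.3 CPM in hnRNP L deficient cells, and 1 of them was called lower. All 6 hepatocyte markers were lower in every hnRNP L deficient library than in any wt library (summed 20.97 to 71.21 against 107.8 to 230.6 CPM), and 1 of them was called. Summed erythroid markers (957.1 to 1012 CPM in wt, 963.5 to 1261 CPM in hnRNP L deficient libraries) and 6 proliferation genes (3738 to 4579 against 4117 to 4174 CPM) overlapped between the groups. What these mixtures of cells contributed to the values below was not tested, and in bulk RNA fewer cells of a type and less RNA per cell cannot be told apart.

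By edgeR's quasi-likelihood test, messages for 14 of the 46 core components rose in the hnRNP L deficient cells at an adjusted p-value under 0.05, by small amounts, and none fell. The calls lay in 8 of 11 groups of components, with none in the U2 snRNP proper, SF3B or the early recognition factors. Among all genes tested 9.32% rose and 9.85% fell. The median log2 change of the 46 was 0.25, with 42 above and 4 below 0, while the median of all genes tested was −0.03. At an unadjusted p under 0.05 there were 23 members higher and 0 lower, against 17.6% and 20.1% of all genes tested. DESeq2 called 19 members higher and limma-voom 26, and neither called any lower, where 12.5% and 17.9% of all genes were called higher. For 32 of the 46 every hnRNP L deficient library lay above every wt library and for 0 below, against 22.7% of all genes above and 22.7% below. The rises were between 0.26 and 0.50 on the log2 scale.

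The calls rested on having all of certain libraries. Without wt replicate 3, edgeR called 0 of the 46 (23 at an unadjusted p under 0.05, of which 3 were lower), and without hnRNP L deficient replicate 1, 2 or 3 it called 0 as well (14, 19 and 16 at an unadjusted p under 0.05, all higher). In these 4 fits between 5 and 17 genes were called of all genes, against 2759 with 6 libraries. Without wt replicate 2, the library rich in granulocyte transcripts, all 14 kept their call and 14 were called in all, and without wt replicate 1 there were 24. Of all genes tested 11.4% rose without wt replicate 2 and 15.7% without wt replicate 1. In the 6 fits that left out a library, the median of the members was lowest without wt replicate 2, at 0.19. It was highest without wt replicate 1, at 0.31, and was 0.25 with all 6 libraries. Median-of-ratios (RLE) factors left 10 of the 14 called, since *Eftud2* and *Ddx23* (both adjusted p = 0.052) and *Prpf3* and *Dhx8* (both 0.05 after rounding) missed the threshold. Scaling by total counts alone shifted the median of all genes by −0.07 and that of the members to 0.19, and left 37 members above 0 and 4 called, *Snrpb*, *Sf3a3*, *Prpf6* and *Prpf31*. With that scaling 7.4% of all genes tested rose, against 9.32% with TMM factors. Rises then made up 37.8% of all genes called, against 48.6% with TMM factors.

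**Figure D1:**
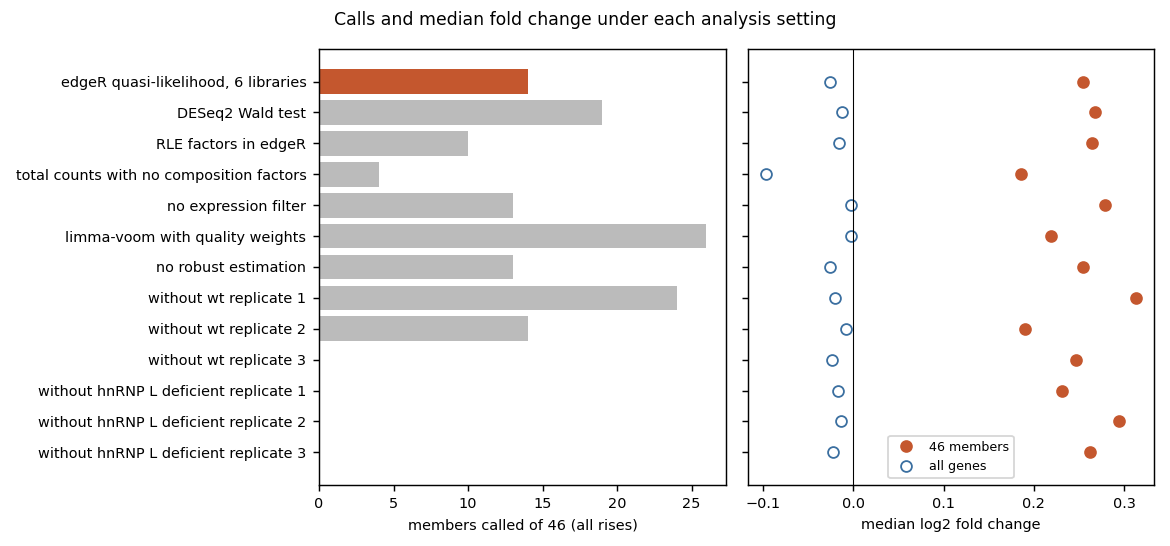
Left, number of the 46 core spliceosome genes called changed at an adjusted p under 0.05 in each analysis setting. Right, median log2 fold change (hnRNP L deficient over wt) of the 46 genes (filled) and of all genes tested (open). The number called ran from 0 to 26, and the median of the members stayed above that of all genes in each setting.

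**Figure D2:**
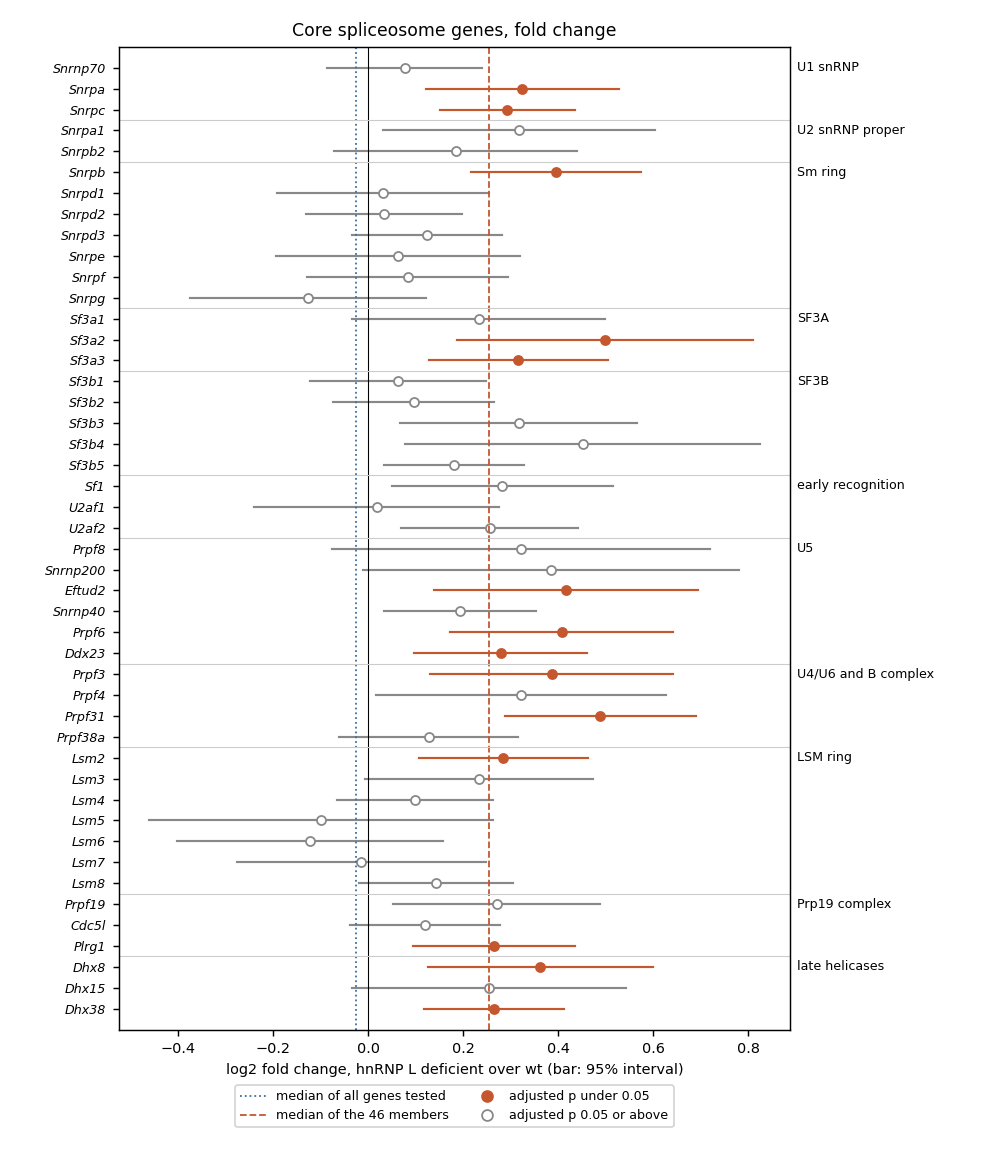
Log2 fold change of each member, hnRNP L deficient over wt, with its 95% interval, grouped by complex. Filled points are the 14 members with an adjusted p under 0.05, and the lines mark the medians of the 46 members (0.25) and of all genes tested (−0.03).

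In the U1 snRNP, *Snrpa* and *Snrpc* rose and *Snrnp70* was not called. *Snrpa*, at chr7:27187005-27196271, encodes the U1-A protein, which binds a stem-loop of U1 RNA. It was at 135.9, 119.7 and 141 CPM in wt and at 174.4, 157 and 165.2 CPM in hnRNP L deficient libraries (log2 change 0.32 ± 0.09 SE, adjusted p = 0.042). *Snrpc*, at chr17:27838150-27851968, encodes the U1-C protein, which steadies the pairing with the 5′ splice site. Its wt values were 64.87, 65.97 and 66.43 CPM and its hnRNP L deficient values 79.48, 79.63 and 82.6 CPM (0.29 ± 0.06, adjusted p = 0.023). The groups did not overlap for either gene, and the 3 wt values of *Snrpc* were nearly the same. *Snrnp70*, which encodes U1-70K, was at 404.8, 400.9 and 385.3 CPM in wt and at 429, 415.1 and 411.9 CPM in hnRNP L deficient libraries. The libraries were again apart, but the change of 0.08 had a 95% interval from −0.09 to 0.24.

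Neither *Snrpa1* nor *Snrpb2*, which encode the pair of proteins specific to the U2 snRNP, was called by edgeR, with log2 changes of 0.32 and 0.18. The first had an unadjusted p under 0.05, DESeq2 called neither, and limma-voom called 2 of 2. Of the 7 genes of the Sm ring, which encircles the RNA of U1, U2, U4 and U5, *Snrpb* alone was called. *Snrpb* (chr2:130171414-130179403) encodes SmB and rose from 384, 364.5 and 402.2 CPM to 519.8, 493.7 and 499.1 CPM (0.39 ± 0.08, adjusted p = 0.021). The other 6 Sm genes had log2 changes between −0.13 and 0.12, and for 5 of them the libraries of the groups overlapped. The ring takes up 1 copy of each subunit. The 95% interval of *Snrpb* began at 0.22, above the point values of the other 6. It overlapped the intervals of *Snrpd1*, *Snrpd3*, *Snrpe* and *Snrpf*, which ended at 0.254, 0.282, 0.319 and 0.295. Those of *Snrpd2* and *Snrpg* ended below it, at 0.198 and 0.122. The difference between *Snrpb* and the others was not itself tested. Reads of *Snrpe*, *Snrpf* and *Snrpg* are less certain. In their longest coding transcripts 13.7%, 16.1% and 13.8% of the 100-base stretches recur in other annotated genes, mostly processed pseudogenes.

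SF3A, which docks on the U2 snRNP, had 2 of 3 subunits called and all 3 apart from wt. *Sf3a2* (chr10:80798198-80804924) showed the largest change of the 46, from 180, 138.5 and 192.4 CPM in wt to 262.6, 229.5 and 229.4 CPM in hnRNP L deficient libraries (0.50 ± 0.13, adjusted p = 0.041). *Sf3a3* (chr4:124714776-124732460) was at 191.7, 167 and 166.4 CPM in wt and at 222.5, 213.8 and 217.3 CPM in hnRNP L deficient libraries (0.32 ± 0.08, adjusted p = 0.036). Both lay above all wt libraries, and for *Sf3a2* wt replicate 2 was the lowest of the 6. *Sf3a1* had a change of 0.23 (adjusted p = 0.18). Their promoter windows are printed above.

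None of the 5 SF3B genes was called by edgeR, though 3 had an unadjusted p under 0.05, and DESeq2 and limma-voom called 2 each. *Sf3b1*, which encodes the large subunit that clasps the branch site, was at 651.9, 591.6 and 579.5 CPM in wt and at 640.8, 636.8 and 626.5 CPM in hnRNP L deficient libraries. The groups overlapped, and its change of 0.06 had a 95% interval from −0.12 to 0.25 and was −0.01 with total counts. *Sf3b4* had the largest change among members not called, from 138.9, 88.9 and 105.2 CPM to 160, 141.6 and 153.5 CPM (0.45 ± 0.16, adjusted p = 0.084). It was called by DESeq2 (adjusted p = 0.031), by limma-voom (0.0085) and by edgeR without wt replicate 1 (0.01), the adjusted p of all its alternatives lying between 0.0085 and 0.23. Of the 100-base stretches in its longest coding transcript 36.9% recur in a processed pseudogene. *Sf3b2*, *Sf3b3* and *Sf3b5* had changes of 0.10, 0.32 and 0.18.

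Of the factors that first recognize the 3′ end of the intron, none was called by edgeR, 2 of 3 had an unadjusted p under 0.05, and DESeq2 called 2 and limma-voom 1. *U2af2* encodes the large U2AF subunit, which binds the polypyrimidine tract, and was at 408.3, 363.3 and 370 CPM in wt and at 466.4, 440.4 and 455.9 CPM in hnRNP L deficient libraries (0.26 ± 0.08, adjusted p = 0.062). The groups did not overlap, and DESeq2 (adjusted p = 0.029), limma-voom (0.011) and edgeR without wt replicate 1 (0.017) called it, within a range of 0.011 to 0.2 over all its alternatives. Its partner *U2af1*, which reads the AG at the 3′ splice site, was at 163.8, 133 and 123.8 CPM in wt and at 143.6, 142.3 and 139.8 CPM in hnRNP L deficient libraries. The wt libraries enclosed all 3 hnRNP L deficient ones, and the change of 0.02 (95% interval −0.24 to 0.28) turned sign with total counts (−0.05), without wt replicate 2 (−0.02) and without wt replicate 3 (−0.06). Of the 100-base stretches in the longest coding transcript of *U2af1* 49.5% recur elsewhere, the largest share among the members. *Sf1*, the branch site binding protein, had a change of 0.28 (adjusted p = 0.084).

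Every U5 gene lay above wt in all hnRNP L deficient libraries, as did 22.7% of all genes tested, and 3 of the 6 were called. *Eftud2* (chr11:102838473-102880985), a GTPase of the U5 snRNP, was at 451.2, 334.5 and 403.5 CPM in wt and at 551.3, 511.7 and 524.6 CPM in hnRNP L deficient libraries (0.42 ± 0.12, adjusted p = 0.049). *Prpf6* (chr2:181591868-181655660), which bridges U5 and U4/U6, rose from 136.1, 107.4 and 113 CPM to 160, 153.3 and 159.6 CPM (0.41 ± 0.10, adjusted p = 0.034). For both genes wt replicate 2 was the lowest library. *Ddx23* (chr15:98645134-98662894), the helicase that displaces U1 from the 5′ splice site, rose from 213.5, 189.7 and 206.3 CPM to 260.4, 240.1 and 238.5 CPM (0.28 ± 0.08, adjusted p = 0.047). *Prpf8*, the scaffold of the catalytic center, was at 1215, 772 and 1142 CPM in wt and at 1392, 1248 and 1272 CPM in hnRNP L deficient libraries (0.32 ± 0.17, adjusted p = 0.21). *Snrnp200*, the helicase that unwinds U4 from U6, was at 567.4, 356.2 and 521.6 CPM in wt and at 661.8, 604.8 and 620.9 CPM in hnRNP L deficient libraries (0.39 ± 0.17, adjusted p = 0.14). For these genes wt replicate 2 stood far under the other 2 wt libraries, and without it the change of *Prpf8* was 0.15 and that of *Snrnp200* 0.21.

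Among U4/U6 and B complex proteins, *Prpf31* and *Prpf3* were called. *Prpf31* (chr7:3629985-3642486) helps to hold U4 and U6 together and had the smallest p-value of the members, rising from 187.6, 156.4 and 169.4 CPM to 248.9, 235.3 and 236 CPM (0.49 ± 0.09, 1.4-fold, adjusted p = 0.017). The lowest hnRNP L deficient library was well above the highest wt library. *Prpf3* (chr3:95830124-95855885), a further U4/U6 protein, rose from 110.1, 82.55 and 97.9 CPM to 129.1, 126.8 and 123.8 CPM (0.39 ± 0.11, adjusted p = 0.048). *Prpf4*, its direct partner, had a change of 0.32 (adjusted p = 0.12), and *Prpf38a*, which joins with the B complex, one of 0.13 (adjusted p = 0.28).

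The LSM ring, the counterpart of the Sm ring on U6, had *Lsm2* as its only call among 7 genes. *Lsm2* (chr17:34981862-34985891) rose from 118.1, 104.9 and 103.7 CPM to 135.5, 130.6 and 131.7 CPM (0.28 ± 0.08, adjusted p = 0.041). *Lsm6* was at 78.53, 88.08 and 64.07 CPM in wt and at 70.02, 67.8 and 74.01 CPM in hnRNP L deficient libraries, and its change of −0.12 (95% interval −0.40 to 0.16) turned to 0.04 by limma-voom. The groups overlapped for *Lsm6*, and likewise for *Lsm4*, *Lsm5* and *Lsm7*. The 5 LSM genes other than *Lsm2* and *Lsm6* had changes between −0.10 and 0.23. For *Lsm5* 31.6% of the 100-base stretches in its longest coding transcript recur in other genes, again mostly processed pseudogenes.

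*Plrg1* of the Prp19 complex and the helicases *Dhx8* and *Dhx38* rose as well. *Plrg1* (chr3:83055522-83072355), a scaffold protein with WD repeats, rose from 105.1, 93.94 and 98.71 CPM to 124.6, 116.4 and 116.7 CPM (0.26 ± 0.07, adjusted p = 0.045). *Prpf19*, the ubiquitin ligase of the complex, and *Cdc5l*, its partner, were apart from wt in all libraries but not called, with changes of 0.27 (adjusted p = 0.079) and 0.12 (adjusted p = 0.23). For *Cdc5l* 22.5% of the 100-base stretches in its longest coding transcript recur in other genes, among them protein-coding ones. *Dhx8* (chr11:101732919-101767358), which releases the finished mRNA, was at 130.7, 101.9 and 118.1 CPM in wt and at 156.7, 147.5 and 146.6 CPM in hnRNP L deficient libraries (0.36 ± 0.10, adjusted p = 0.047). *Dhx38* (chr8:109548011-109565861), which acts before the second step, had wt values of 113.8, 113.3 and 113.8 CPM, with hardly any spread, and hnRNP L deficient values of 140.2, 131.8 and 137.5 CPM (0.26 ± 0.06, adjusted p = 0.031). For *Dhx15*, which takes the spent spliceosome apart, the groups overlapped (0.25, adjusted p = 0.17).

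**Figure D3:**
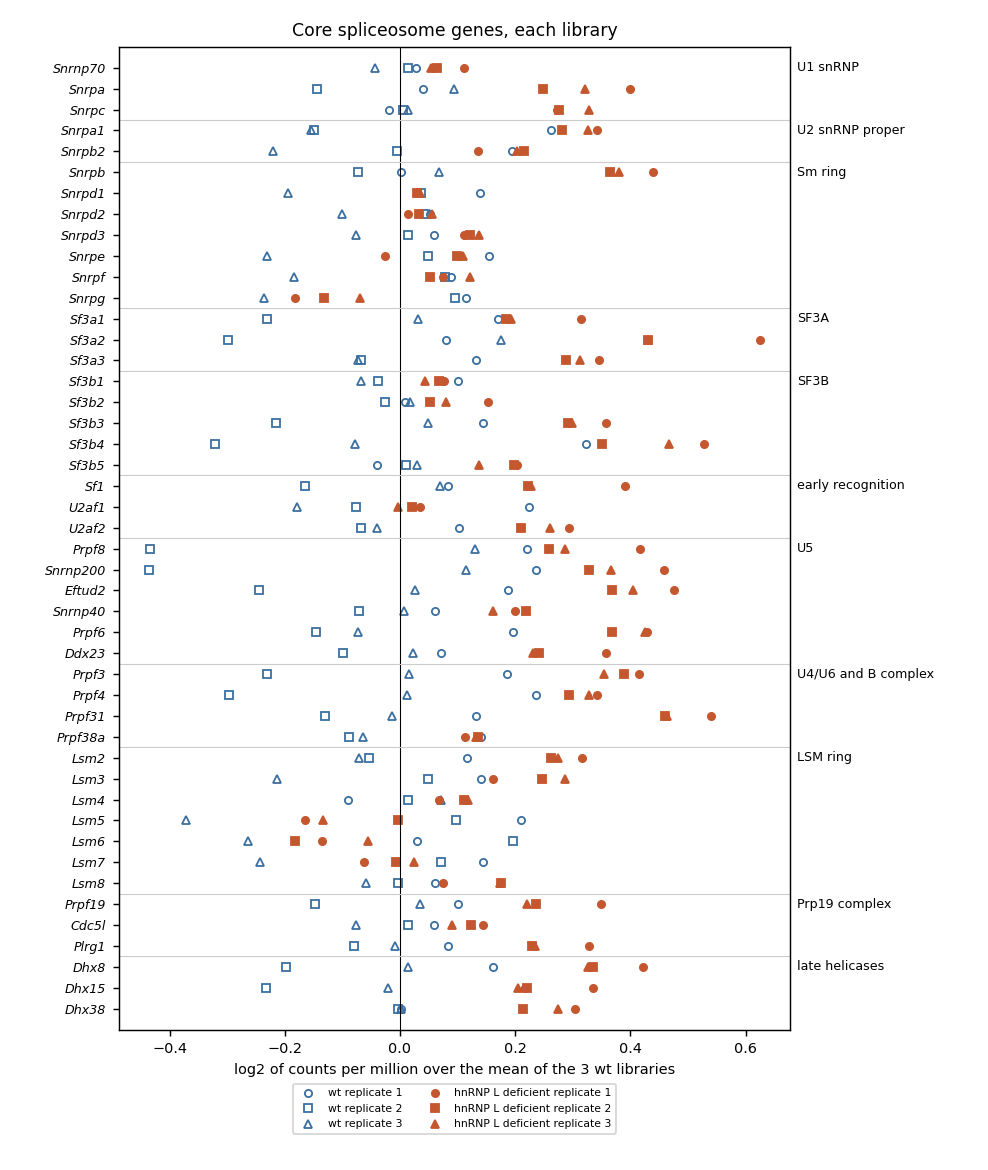
Each member's CPM in each library, as log2 over the mean of the 3 wt libraries, wt open and hnRNP L deficient filled. For 32 of 46 genes all filled points lie right of all open points, wt replicate 2 is the lowest wt library for all 6 U5 genes, and wt replicate 3 is the lowest for 6 of 7 Sm and 6 of 7 LSM genes.

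Variation among wt embryos was larger than among hnRNP L deficient embryos for 42 of the 46 members, with a median SD of 0.15 against 0.04 on the log2 scale. The same held for 81.5% of all genes tested, whose medians were 0.23 and 0.09. The wt libraries differed by complex. Replicate 2 was the lowest wt library for all 6 U5 genes, all 4 U4/U6 and B complex genes and all 3 late helicases, and for 35.9% of all genes tested. Replicate 3 was the lowest for 6 of 7 Sm and 6 of 7 LSM genes, and for 26.1% of all genes tested. Summed over the 46 genes, wt was at 11460, 9513 and 10500 CPM and hnRNP L deficient cells at 12910, 12210 and 12320 CPM. Even the lowest hnRNP L deficient sum was above the highest wt sum. The same held for the sum over 14119 genes tested that had reads in every library. That sum was 1007000, 959200 and 961400 CPM in wt and 1037000, 1017000 and 1020000 CPM in hnRNP L deficient cells.

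Fold changes also differed with transcript length. The 15 members with under 1500 bases of exon had a median log2 change of 0.08 and 3 calls, the 10 members with 1500 to 3000 bases 0.26 and 4 calls, and the 21 longer members 0.28 and 7 calls. Among all genes tested the medians in these classes were 0.03, 0.01 and −0.07, and 8.48%, 12.6% and 7.79% rose. Across the 46 genes, log2 exon length and log2 change correlated with r = 0.39 and rho = 0.39, while across 14226 genes tested with a known length r was −0.09 and rho −0.12. Genes share libraries and are no replicates, so these correlations only describe the values. The short members are mostly Sm and LSM genes, so that length and complex cannot be told apart.

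Per kilobase of exon, which allows genes to be compared, wt levels ran from 19.6 to 330 CPM per kb. *Snrpb* was highest with 330.4 ± 16.3 CPM per kb (SD, n = 3) in wt and 434.3 in hnRNP L deficient libraries, followed by *Snrnp70* with 228.8 ± 5.94 and 241.3. *U2af2* was next at 168.4 ± 10.8 in wt, and did not differ beyond its spread from *Sf3b2* at 166.4 ± 2.64. *Lsm6* was lowest with 19.58 ± 3.08 in wt and 17.99 in hnRNP L deficient libraries, a level within the spread of *Prpf4* at 20.33 ± 3.7. The level depends on the annotated exon length, which for *Lsm6* was 3926 bases. *Prpf8* stood at 140.1 ± 32, *Sf3b1* at 98.1 ± 6.26 and *U2af1* at 126 ± 18.9 CPM per kb in wt. All 46 genes were thus well above the level of 3 reads in every library.

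**Figure D4:**
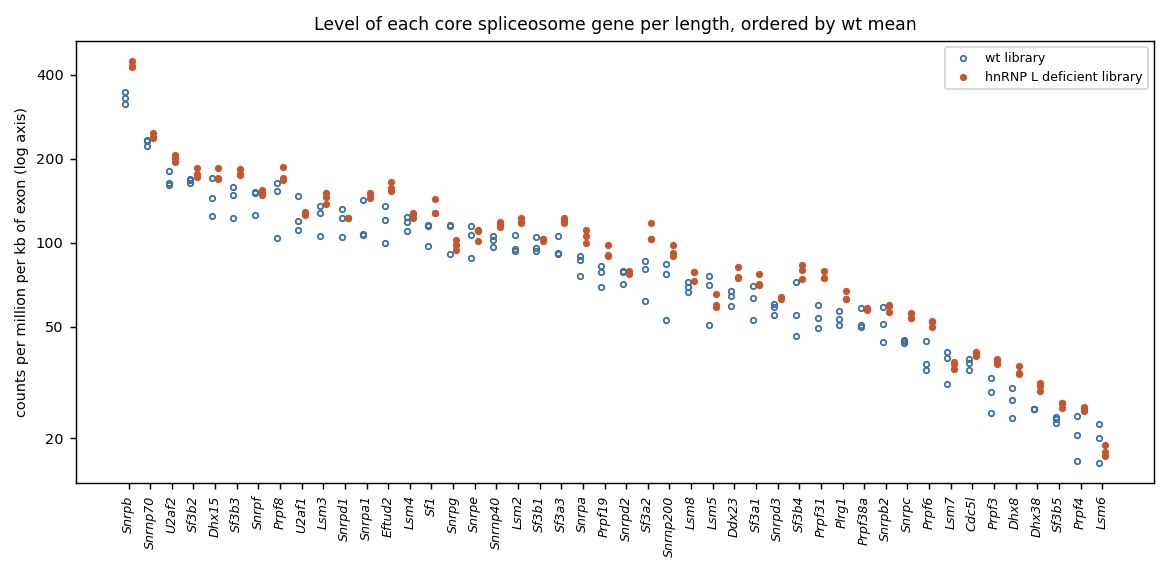
CPM per kb of exon of each member in each library on a log axis, ordered by the wt mean, wt open and hnRNP L deficient filled. *Snrpb* (330.4) and *Lsm6* (19.58) are the ends of the wt order, and neighbouring genes mostly overlap.

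A further 70 genes, here called other spliceosome genes, were examined, of which 69 were matched and tested. They include assembly factors of the Sm ring and further LSM genes, not all of which are parts of the spliceosome itself. By edgeR 20 of the 69 rose and 0 fell, against 9.32% and 9.85% of all genes tested. At an unadjusted p under 0.05 there were 34 higher and 0 lower, against 17.6% and 20.1% of all genes tested. DESeq2 and limma-voom called 23 and 33, all higher, where 12.5% and 17.9% of all genes were called higher. Their median log2 change was 0.20. In 41 of the 69 all hnRNP L deficient libraries were above wt and in 1 below, against 22.7% of all genes above and 22.7% below. As for the members, edgeR called 0 of them without wt replicate 3 or without any of the 3 hnRNP L deficient replicates (31, 21, 28 and 24 at an unadjusted p under 0.05). It called 20 without wt replicate 2 and 35 without wt replicate 1, where 11.4% and 15.7% of all genes tested rose. The group with the largest median was the Sm assembly machinery, which loads the Sm ring onto snRNA, with 0.40 and 5 of 12 called. The largest of these were *Prmt5*, the methyltransferase of the Sm proteins, with 0.63 ± 0.11 (adjusted p = 0.016), *Smn1* with 0.55 ± 0.10 (0.017) and *Strap* with 0.44 ± 0.11 (0.037). *Prmt5* was at 239.2, 183.7 and 209.1 CPM in wt and at 344.8, 314.5 and 320.3 CPM in hnRNP L deficient libraries. *Smn1* stood at 81.07, 69.52 and 64.92 CPM in wt and at 105.7, 100.3 and 109.8 CPM in hnRNP L deficient libraries. Neither gene overlapped between the groups.

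The group counts that follow stand beside 9.32% of all genes tested that rose by edgeR, and 17.6% higher at an unadjusted p under 0.05. Of 10 further U4/U6.U5 genes 4 rose, among them *Usp39* (0.51 ± 0.13, adjusted p = 0.036), *Txnl4a* (0.41 ± 0.08, 0.021) and *Cd2bp2* (0.35 ± 0.07, 0.021). Of 15 Prp19-related genes 5 rose, led by *Bcas2* (0.48 ± 0.12, adjusted p = 0.036), *Isy1* (0.35 ± 0.09, 0.035) and *Rbm22* (0.32 ± 0.07, 0.03). Of 9 U2-related genes 3 rose, *Rbm17* (0.43 ± 0.09, adjusted p = 0.023), *Smndc1* (0.40 ± 0.11, 0.049) and *Phf5a* (0.31 ± 0.07, 0.033), the last a small subunit of SF3B. *Sf3b6*, a further small SF3B subunit, was not called (−0.19, adjusted p = 0.16), and is named here after its value was seen. The minor spliceosome, which removes a rare class of introns, had 2 of 8 genes called, *Snrnp35* (0.39 ± 0.10, adjusted p = 0.033) and *Zrsr2* (0.36 ± 0.07, 0.024). Among 6 genes of the second step and release *Dhx35* rose (0.32 ± 0.07, adjusted p = 0.028). None of 6 U1-associated genes was called by edgeR, DESeq2 or limma-voom, and of 3 further LSM genes limma-voom alone called 1, with 1 gene in each group at an unadjusted p under 0.05.

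Exon usage within the members was examined in exon bins, the pieces into which overlapping annotated exons are divided, in 5 libraries, those of wt and those of replicates 2 and 3 of the hnRNP L deficient group. The embryo numbers of these hnRNP L deficient replicates share a first part in the labels, and no source says whether this marks a litter. Bins are given by number, since the counts carry no coordinates. Of 874 bins in the 46 genes, 829 in 45 genes had a mean of at least 10 reads and were tested, and *Sf3b5* has a single bin, so that none could be compared. With diffSpliceDGE of edgeR, which sets a bin against the other bins of its gene, 0 of the 829 reached an adjusted p under 0.05, against 0.0288% of 176996 bins overall. At an unadjusted p under 0.05 there were 7 (0.844%, against 1.03% of all bins). Calls by limma's diffSplice numbered 2 of the 829, against 218 of the 176996 bins overall. With unadjusted p under 0.01 and a change over 2-fold, 1 member bin passed, against 0.249% of all bins. The 495 member bins with at least 1000 reads changed by between −0.34 and 0.27 on the log2 scale, and the 11 bins beyond 2-fold had a median of 30.2 reads.

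The bin that passed was bin 6 of *Lsm6*, with 10, 27 and 10 reads in wt and 90 and 77 reads in hnRNP L deficient libraries. These were 0.132%, 0.286% and 0.121% of the reads on all bins of the gene in wt and 1.09% and 0.743% in hnRNP L deficient libraries. The hnRNP L deficient libraries were thus higher in both measures, in a bin that took at most 1.09% of the reads. Its log2 usage change was 2.26 (adjusted p = 0.255), and without wt replicate 2 it was 2.85 with an adjusted p of 0.0127, while the other alternatives that tested it gave adjusted p-values of 0.304 to 1. The bins that limma called were bin 43 of *Sf1*, with a change of −0.67 (adjusted p = 0.0218), and bin 1 of *Prpf38a*, with 1.12 (adjusted p = 0.028), named here after their values were seen. Bin 43 of *Sf1* held 0.851%, 1.13% and 0.971% of the gene's bin reads in wt and 0.626% and 0.59% in hnRNP L deficient libraries. Bin 1 of *Prpf38a* held 0.66%, 0.41% and 0.615% in wt and 1.16% and 1.25% in hnRNP L deficient libraries. By edgeR's diffSpliceDGE each of these 2 bins had an adjusted p of 1.

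**Figure D5:**
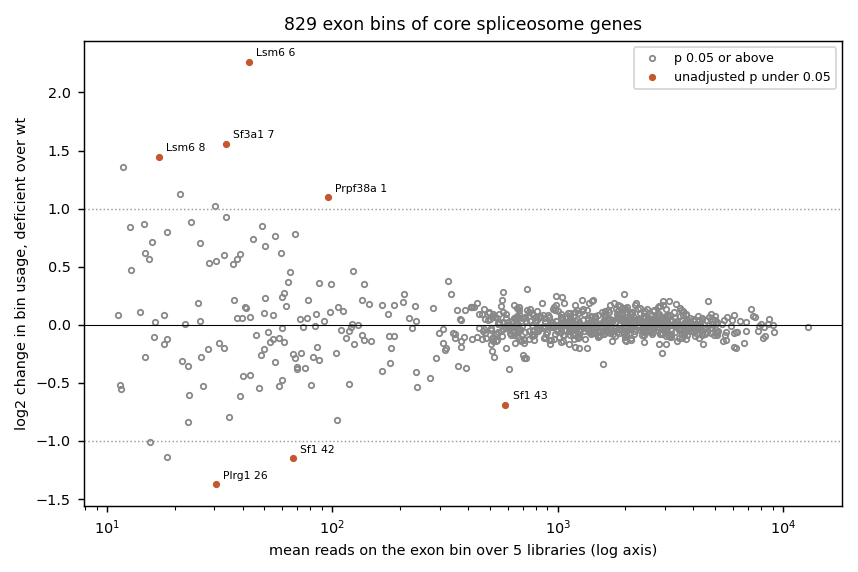
Log2 change in usage of each tested exon bin of the members (hnRNP L deficient over wt) against its mean reads over 5 libraries on a log axis, with dotted lines at 2-fold. The 7 filled bins have an unadjusted p under 0.05, and changes beyond 2-fold are found among bins with few reads.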

How the data were processed

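Lin- cKit+ FL cells of 3 wt and 3 hnRNP L deficient E14.5 embryos were sequenced as stranded paired-end mRNA libraries. Per the labels, reads were placed on GRCm38 by TopHat2 2.0.10, and the authors deposited raw read counts per Ensembl gene (HTSeq) and per exon bin (the counting script of DEXSeq), without normalization. The Ensembl release and counting options are not given in the sources used here. Reads that were not assigned to a gene made up 46.7% to 53.3% of each library's total and were left out of library sizes. For the first hnRNP L deficient library no exon bins were analysed here. A read can count on several bins.

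Tests on the counts used edgeR 4.0.16 (R 4.3.3). After TMM scaling and the default expression filter, 3 hnRNP L deficient libraries were compared with 3 wt libraries by the robust quasi-likelihood test, with Benjamini-Hochberg adjustment over 14396 genes. Genes were called at an adjusted p under 0.05. SE is the log2 change divided by the root of F. CPM used the TMM library sizes, and CPM per kb the union of GENCODE exons. Bins were tested by diffSpliceDGE. The gene and bin tests were also run on simulated counts. These were drawn with a common spread for all bins, so they do not show how the bin test performs on these data. All tests were two-sided. DESeq2 1.42.0, limma 3.58.1 and the other alternatives are given at the end.

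The members, and the lists of other genes and markers, were chosen with earlier results of these data known. Genes named with all values were the members called, the 3 largest changes not called, the highest and lowest per kb, and *Sf3b1*, *U2af1*, *U2af2*, *Prpf8*, *Snrnp70* and *Snrpb*. Up to 3 rises per group were named among other spliceosome genes. Replicates are separate embryos.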

Additional observations from a re-analysis of the deposited data

How the results depend on the processing

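Rises among the members numbered 10 with RLE factors, 4 with total counts, 26 by limma-voom, and 0 to 24 when each library was left out, and no alternative called a fall. Of all genes tested 9.29% rose with RLE factors, 7.4% with total counts and 17.9% by limma-voom. On leaving out a library 0.0341% to 15.7% rose. Rises among the other spliceosome genes numbered 33 by limma-voom and 0 to 35 on leaving out a library. For all genes, DESeq2 called 2227 falls, limma-voom 2576 rises and 2774 falls, and leaving out a library gave 5 to 2312 rises and 0 to 2479 falls. The fits with few calls were those without wt replicate 3 and without each hnRNP L deficient replicate, in which *Hnrnpl* also missed the threshold at log2 changes of −0.94 to −1.05. The cause was not tested. Each of the 14 members called was higher under all 12 alternatives. For exon bins, limma called 218 of all bins and 2 of the members', unadjusted thresholds gave 441 and 1, and leaving out a library gave 3 to 158 and 0 to 1. A minimum of 50 reads left bin 6 of *Lsm6* untested. No paired analysis was possible because replicate numbers here only follow the order of the samples. The embryo numbers in the labels share a first part between wt replicate 1 and hnRNP L deficient replicate 1, and between hnRNP L deficient replicates 2 and 3, but no source says that this marks a litter, and only 1 pair would cross the groups. What limited the number of calls was not tested.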
